A study of Mus musculus with 8 samples.

Results

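The natural killer receptor gene complex is a run of C-type lectin receptor genes on mouse chromosome 6. Its members were the protein-coding genes of the GENCODE M21 annotation on the distal part of that chromosome whose symbols begin with Klr or Clec. They were picked by position and name, though with earlier results of these data known. There were 34 such genes among the 21938 protein-coding genes placed in bins. They lay at chr6:128599965-131249858 (GRCm38, bin edges), which covers 53 bins of about 50 kb, and a flank of 1 Mb (20 bins) was read on each side. The 34 gene starts fell in 29 bins, so genes that start in the same bin, such as Klre1 and Klrd1 or Clec12b and Clec1b, share every value given here.

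The complex encodes paired activating and inhibitory receptors through which natural killer cells decide whether to attack a cell. Klra genes (Ly49 receptors) bind MHC class I. Klrd1 encodes CD94, which pairs with the NKG2 proteins of the Klrc genes to read a nonclassical MHC molecule, and Klrk1 encodes NKG2D, which binds stress-induced ligands. Klrb1 genes encode NKR-P1 receptors, and the neighbouring Clec2 genes encode lectins that several of them bind. The myeloid Clec genes between them serve other cells, as Clec9a does in dendritic cells and Clec1b in platelets. Cd69, a lectin gene that is no member by name, lies among them and is switched on in activated lymphocytes.

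Splenic B cells of mice were activated in culture with lipopolysaccharide (LPS), and 8 in situ Hi-C libraries were made from them. Hi-C cuts crosslinked chromatin (here with MboI) and ligates ends that lie close together, and a sequenced read pair then counts as 1 contact. There were 2 biological replicates in each of 4 groups, namely 3 h, 10 h, imminent division (33 h) and pre-S (33 h). The mice were males of 6 to 12 weeks with a C57BL/6 Pep3b background. Cells of the first 3 groups were sorted as CD69+ cells that had not divided (highest CellTrace Violet), whereas the pre-S group was taken from mice with the FUCCI cell cycle reporter and gated as mAG- mKO2hi as well, so mouse strain and gate cannot be told apart from that group. No RNA was measured in these libraries, so the cell type could not be checked against its markers and no expression of a receptor gene is reported.

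Libraries held 88703088 to 218945191 read pairs, of which 70.9% to 75.1% of the autosomal ones lay within a chromosome. One library stood apart from its labels. In imminent division replicate 2, 3.74% of read ends lay on the X chromosome and 0.0489% on Y, against 2.39% to 2.84% and 0.0803% to 0.123% in the other 7. The main counts that rest on imminent division are therefore also given without that library. The p-values measure the spread between these samples.

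The sequence of the complex is repetitive, and reads from near-identical copies cannot all be placed. Bins of repeated sequence were left out as an alternative only for contact of the blocks and measures of the whole complex, as given below. The part of such reads in the other results was not tested. The median bin of the complex had 67.3% of its 31-mers found once in the genome, against 94.7% in the proximal flank, 66.3% in the distal flank and 88.8% over chromosome 6. All 12 bins of the Klra block were under 80%. The most alike pair of Klra promoters shows the degree of copying. Their windows of 250 bases before to 50 after the gene start (RefSeq, GRCm38.p6, minus strand) matched at 271 of 281 aligned bases (96.4%), and over all 55 pairs of Klra promoters the median identity was 72%. The capitals mark the 10 aligned letters that differ between them, Klra9 at chr6:130193063-130193362 and Klra3 at chr6:130337577-130337876.
Klra9: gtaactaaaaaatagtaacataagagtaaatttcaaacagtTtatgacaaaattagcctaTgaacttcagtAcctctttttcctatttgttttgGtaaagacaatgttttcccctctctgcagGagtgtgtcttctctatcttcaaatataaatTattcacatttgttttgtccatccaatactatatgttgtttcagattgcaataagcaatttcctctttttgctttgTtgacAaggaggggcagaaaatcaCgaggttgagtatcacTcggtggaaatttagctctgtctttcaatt
Klra3: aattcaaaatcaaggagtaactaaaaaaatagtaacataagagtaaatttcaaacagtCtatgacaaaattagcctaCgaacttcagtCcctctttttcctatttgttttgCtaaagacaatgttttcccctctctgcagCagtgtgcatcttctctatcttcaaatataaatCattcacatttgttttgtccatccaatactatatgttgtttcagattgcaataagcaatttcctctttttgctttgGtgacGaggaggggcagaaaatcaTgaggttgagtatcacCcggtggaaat

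CTCF is the DNA-binding protein at which many chromatin loops and domain borders stop, and its binding site has a direction. The core of that site, read as CCAC, any base, AG, any 2 bases and GGC, was looked for on both strands. Its letters were in 7 of the 53 bins of the complex (13.2%), against 25.9% of all bins of chromosome 6. None of the 37 promoter windows of the 31 members with a RefSeq window held them, against 0.648% of 32851 windows of all genes. A match of letters is a description of the sequence and not a measured site, and its link to changed contacts was not tested. The bins of Klrb1a, Klrb1, Cd69 and A2ml1 anchor changed contacts below and hold none of the letters. All 7 matches of the complex and 1 of the proximal flank are printed here because several of their bins, among them those of Clec12b and Clec1b, of Olr1, Tmem52b and Gabarapl1, and of Klre1 and Klrd1, anchor changed contacts below, though that between Klri2 and Klra17 anchors none. The flanks held 18 matches, of which that of the bin of Itfg2 and Fkbp4 is shown because a pair described below ends there, and other flank bins with the letters, such as those of Foxm1 and of Styk1 and Ybx3, anchor changed contacts too. The sequences are given with the 12 core letters in capitals and each sequence read on the strand that holds the core.
Itfg2/Fkbp4 bin, chr6:128412513-128412542, plus strand: acctggcacCCACAAGGTGGCtaacaacta
Klrb1b bin, chr6:128808675-128808704, plus strand: gccaaggctCCACCAGGTGGCaaatgtgaa
Clec2i bin, chr6:128854240-128854269, plus strand: tataaacagCCACCAGGGGGCactcattac
Clec12b/Clec1b bin, chr6:129366061-129366090, minus strand: tctgtgccaCCACTAGAGGGCagtatgctt
Olr1/Gabarapl1 bin, chr6:129518202-129518231, minus strand: attattgttCCACTAGGTGGCagcaagacc
Klre1/Klrd1 bin, chr6:129559476-129559505, minus strand: cctcctcttCCACCAGGTGGCgatgcgtgc
Bin between Klri2 and Klra17, chr6:129825748-129825777, plus strand: gtgcattggCCACCAGAGGGCacagtcaat
Bin before Klra2, chr6:131178716-131178745, plus strand: tcccagcaaCCACAAGGTGGCtcacagcca

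Differential interactions (DIs) were tested per pair of 50 kb bins to ask where contacts of the complex strengthened or weakened between stages. From 3 h to 10 h no bin pair inside the complex changed. Of the 950 bin pairs tested there, 0 were called by the edgeR quasi-likelihood test at a false discovery rate (FDR) of 5%, 68 had an unadjusted p under 0.05 and DESeq2 also called 0, while over all 1457949 autosomal bin pairs 0.000549% strengthened and 6.86e-05% weakened. From 10 h to imminent division, 18 bin pairs of the complex strengthened (1.89%) and 21 weakened (2.21%), against 0.688% and 1.3% over all bin pairs. The count depends on single libraries, since it was 3 without 10 h replicate 2, 13 without 10 h replicate 1, 17 without imminent division replicate 1 and 19 without imminent division replicate 2. The split moved with the offsets, to 67 strengthened and 23 weakened with bin coverage in them, 39 and 42 with TMM factors and 29 and 8 with a fit per distance class, and DESeq2 called 0, with no adjusted p for 684 of the pairs. The 4 contrasts share libraries, so their counts are not independent of each other.

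The direction of change differed along the complex. The bins up to that of Olr1, Tmem52b and Gabarapl1, which lie beside Clec1a, are called the Klrb1 to Clec1a side here, and the bins from that of Klre1 and Klrd1 on are called the Klrd1 to Klra2 side. This split was drawn after the values were seen, so its counts are a description. Within the Klrb1 to Clec1a side 6 of 171 bin pairs strengthened and 21 weakened. Within the Klrd1 to Klra2 side 8 of 561 strengthened and 0 weakened, and the median log2 change was 0.31, with 494 of 561 above 0. Between the sides 4 of 218 strengthened and 0 weakened. The median log2 change over all autosomal bin pairs, of any distance, was 0.03. No share above 0 over all bin pairs and no median at matched distances is given here. Whether the gain was particular to the Klrd1 to Klra2 side was therefore not tested.

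**Figure D1:**
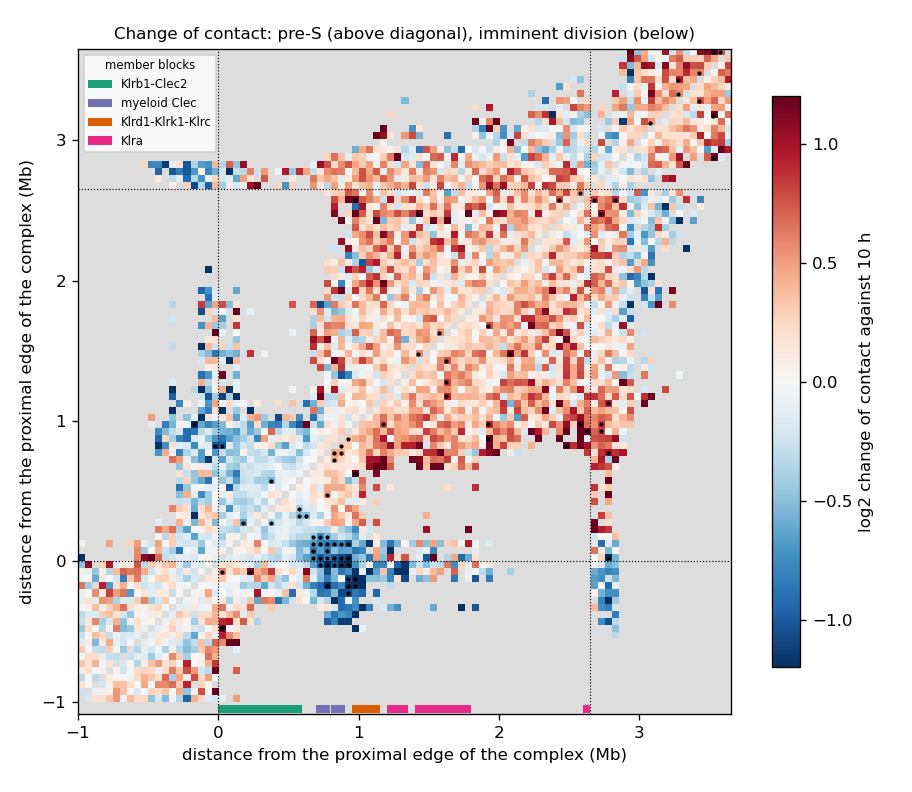
Log2 change of contact against 10 h for each tested pair of 50 kb bins, with both axes giving the distance from the proximal edge of the complex in Mb, imminent division below the diagonal and pre-S above it. Grey pairs were not tested, black dots mark pairs past FDR 5%, dotted lines mark the edges of the complex and the coloured bars the member blocks. At imminent division the 17 weakened pairs between the Klrb1a to Klrb1c bins and the bins beyond Clec2d form a blue patch, and the Klrd1 to Klra2 side is mostly red.

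Most weakened contacts were long and ran from the bins of Klrb1a to Klrb1c to those from Cd69 to Olr1. Of the 21 weakened pairs, 17 joined the 4 bins from Klrb1a to Klrb1c with bins beyond Clec2d, at 500 to 900 kb, with log2 changes of -1.25 to -0.43. The bin of Klrb1a, an NKR-P1 receptor gene, was an anchor of 6 of the 21 and that of Klrb1 also of 6. At the other end the bin of Clec12b and Clec1b anchored 4 and that of Olr1, Tmem52b and Gabarapl1 anchored 2, and with pairs into the flanks each of these 2 bins anchored 6. The Cd69 bin anchored 4, all with the bins from Klrb1a to Klrb1c. The other 4 weakened pairs were 100 to 300 kb long and lay in the stretch from Clec2i to the bin after Clec2d. Offsets fitted per distance class left fewer weakened pairs in the complex, as given above, and 9242 in place of 19001 over all bin pairs. The paper describes the contacts that weakened before the first division as mostly of longer range. No share of weakened pairs at matched distances is given here, so a local loss cannot be told from a general one.

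Weakening also reached into the proximal flank, where 11 of 231 bin pairs with the complex weakened and 3 strengthened. Over all bin pairs, of any distance, 1.3% weakened and 0.688% strengthened. All 11 ended in the bins from Clec12a to Klrd1, at 750 to 1150 kb. The pair with the smallest p joined the bin of A2ml1, a protease inhibitor gene next to Klrb1a, with that of Olr1, Tmem52b and Gabarapl1 950 kb away. Normalized counts were 44.4 and 40.9 at 3 h, 41.5 and 55.6 at 10 h, 14.7 and 16.9 for imminent division, and 41.4 and 30.9 in pre-S cells. Both imminent division libraries lay below every other library, and the log2 change from 10 h was -1.63 (FDR 2.67e-06). Imminent division was also below pre-S in this pair, at -1.2 (FDR 0.0174).

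The next pair joined A2ml1 with the bin of Clec12b and Clec1b, which holds core letters on the minus strand. Its normalized counts were 64.3 and 57.3 at 10 h, 22.0 and 23 for imminent division, and 38.2 and 36.6 in pre-S cells, after 52.8 and 52.2 at 3 h. The groups at 33 h lay below those at 3 h and 10 h without overlap, with a log2 change of -1.42 for imminent division (FDR 3.50e-06) and of -0.69 in pre-S cells, which missed the threshold (FDR 0.164). The third pair joined the bin of Itfg2 and Fkbp4, with core letters on the plus strand, to that of Olr1, Tmem52b and Gabarapl1, with core letters on the minus strand, 1100 kb apart. It held 33.4 and 36.1 normalized counts at 10 h and 10.1 and 9.25 for imminent division, a log2 change of -1.84 (FDR 1.87e-05), with 23.4 and 36.9 at 3 h and 19.3 and 18.5 in pre-S cells. Without any 1 of the 8 libraries, all of these 3 pairs stayed past the threshold. The Itfg2 and Fkbp4 pair missed it when libraries were thinned to the shallowest, with a log2 change of -1.32.

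Some strengthened contacts were short and lay among the myeloid Clec genes. Among the bins from Clec12a to Olr1, 5 pairs at 50 to 100 kb strengthened. The pair of Clec12b and Clec1b with Clec9a held 253 and 210 normalized counts at 10 h and 312 and 325 for imminent division, a log2 change of 0.47 (FDR 0.000956), with 264 and 286 at 3 h and 245 and 287 in pre-S cells. The imminent division libraries were the highest, and the call was lost without 10 h replicate 2 (log2 change 0.34) and with TMM factors (0.18).

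The Klrd1 bin gained a contact 1600 kb away. With the bin before Klra2 it held 10.1 and 7.74 normalized counts at 10 h, 33.3 and 25.0 for imminent division, and 25.5 and 26.3 in pre-S cells, after 14.9 and 15 at 3 h. All 4 libraries at 33 h were above all 4 earlier ones, on 21 to 41 read pairs against 9 to 17. The log2 change was 1.70 for imminent division (FDR 0.00102, and 1.49 and not called without 10 h replicate 2) and 1.55 in pre-S cells (FDR 0.0234). The pre-S call was also lost without 10 h replicate 2, and with bin coverage in the offsets. The same bin before Klra2 gained contact with Magohb, the first gene beyond the complex, by 0.84 on the log2 scale (FDR 0.000865). That pair held 68.7 and 44.5 normalized counts at 10 h and 88.6 and 108 for imminent division, and its call was lost without 10 h replicate 2 (0.54) or imminent division replicate 2 (0.67).

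From 10 h to pre-S, 6 bin pairs of the complex strengthened (0.632%) and 3 weakened (0.316%), against 0.339% and 0.252% over all bin pairs. The count fell to 3 without 10 h replicate 1, 0 without 10 h replicate 2, 2 without pre-S replicate 1 and 1 without pre-S replicate 2. It was 0 with bin coverage in the offsets and by DESeq2, whereas TMM factors gave 3 strengthened and 9 weakened. The 6 strengthened pairs of the reported fit were all on the Klrd1 to Klra2 side. They are few and the split was drawn after the values were seen, so this is a description. Klra6 and Klra4, neighbouring Ly49 genes, held 163 and 152 normalized counts at 10 h and 232 and 235 in pre-S cells, a log2 change of 0.57 (FDR 0.00408), with 184 and 188 at 3 h and 190 and 183 for imminent division. The change was 0.35 and not called when bin coverage was part of the offsets.

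The 3 pairs of the complex that weakened at pre-S fell on the Klrb1 to Clec1a side. Their share was near that over all bin pairs, so their place is a description too. Klrb1a with Clec9a, 800 kb apart, held 58.3 and 51.7 normalized counts at 10 h and 27.7 and 27.1 in pre-S cells, a log2 change of -0.99 (FDR 0.0376). Imminent division, with 18.7 and 33.9, was lower than 10 h too (-1.02, FDR 0.00226), and both 3 h libraries (56.4 and 57.7) lay near 10 h. The bin between Clec2g and Klrb1f with that of Clec2d, whose product is a ligand of NKR-P1 receptors, changed by -0.55 (FDR 0.0191), from 186 and 204 normalized counts to 152 and 112. The 3 h libraries (142 and 168) and the imminent division libraries (175 and 126.9) overlapped those of pre-S. Across the flank, Itfg2 and Fkbp4 with Klre1 and Klrd1 changed by -1.96 (FDR 0.00778), from 25.0 and 26.7 to 8.96 and 3.88, on 3 and 8 read pairs at pre-S. The 3 h libraries of that pair were apart, at 25.3 and 10.2, and those of imminent division held 8.2 and 13.2. Calls of these 3 pairs were lost in 1 or more of the fits that left out a library.

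In the distal flank 6 of 146 bin pairs strengthened at pre-S and 0 weakened, against the 0.339% and 0.252% over all bin pairs. The 2 with the smallest p joined Prb1, a salivary proline-rich protein gene, with bins 50 and 100 kb away, by 0.74 and 1.26 on the log2 scale (FDR 0.00962 and 0.00340). Both changes rested on the offsets. With bin coverage in them, the first turned to -0.54 and the second was 0.06.

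Imminent division and pre-S differed in few contacts, with 4 of 950 bin pairs of the complex higher at imminent division (0.421%) and 0 lower, against 0.146% and 0.212% over all bin pairs. By the edgeR test 0 were left without imminent division replicate 2, pre-S replicate 1 or pre-S replicate 2, and 1 without 10 h replicate 1 or 10 h replicate 2, while bin coverage in the offsets gave 21 higher and 4 lower. Clec2i with Clec1a, 600 kb apart, held 39.3 and 37.5 normalized counts at imminent division and 12.6 and 20.04 in pre-S cells, a log2 difference of 1.25 (FDR 0.0164). The groups did not overlap, and the libraries at 3 h (25.0 and 36.6) and 10 h (31.9 and 24.6) lay between them. Cd69 took part in 2 more, with Clec2e at 0.53 (FDR 0.0383) and with the bin before that of Clec2e at 0.48 (FDR 0.0420). Clec2e with Cd69 held 154 and 165 normalized counts at imminent division and 113 and 109 in pre-S cells. One pair between the complex and the distal flank was lower at imminent division, at -2.21 (FDR 0.0258), on 4 and 5 read pairs against 10 and 12 in pre-S cells.

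Promoter interactivity is the summed count of a bin that holds a gene start over the bin pairs that exceed a curve on distance. The curve and the pairs were set once over all libraries together. The sum can therefore rise when the promoter gains such contacts and also when the decay with distance differs between libraries. From 3 h to 10 h none of the 29 member promoter bins changed, with 0 called by edgeR, 0 by DESeq2 and 2 at an unadjusted p under 0.05, against 0.62% higher and 0.122% lower over 13062 promoter bins. From 10 h to imminent division 20 bins rose (69%, 25 genes) and 2 fell (6.9%, 2 genes), against 24.7% and 24.2% over all promoter bins. Without imminent division replicate 2 or any other single library, 19 to 23 of the 29 were called. At pre-S 14 bins were higher than at 10 h (48.3%) and 2 lower (6.9%), against 16.4% and 15.3%, and 8 were called in all without pre-S replicate 1. Between imminent division and pre-S 17 were higher at imminent division (58.6%) and 0 lower, against 10.3% and 11.3%, and 13 were called without imminent division replicate 2 and 10 without pre-S replicate 2. DESeq2 called 20, 9 and 9 bins in these 3 contrasts, none of them lower.

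The Klra and the Klrd1 to Klrc blocks carried most of this rise. All 11 Klra promoter bins rose from 10 h to imminent division, with log2 changes of 0.59 to 0.80. Klra9, an Ly49 gene, rose most, from 191 and 162 normalized counts at 10 h to 311 and 298 for imminent division (log2 change 0.80, FDR 2.43e-09), with 180 and 182 at 3 h. It held 195 and 191 in pre-S cells, so pre-S lay beside 3 h and 10 h, and imminent division was above pre-S by 0.66 (FDR 1.45e-06). Klra17 came next, from 412 and 408 to 706 and 670 (0.74, FDR 4.29e-12), with 540 and 504 in pre-S cells. The other 9 Klra genes, Klra1, Klra2, Klra3, Klra4, Klra5, Klra6, Klra7, Klra8 and Klra10, rose by 0.59 to 0.72.

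At pre-S 7 of the 11 Klra bins rose, by 0.25 to 0.38, while Klra2, Klra3, Klra4 and Klra9 had changes of 0.19, 0.13, 0.17 and 0.14 that missed the threshold. All 11 were higher at imminent division than at pre-S, by 0.30 to 0.66. Klra8, which encodes the activating receptor Ly49H, held 249 and 226 normalized counts at 10 h, 372 and 403 for imminent division and 313 and 301 in pre-S cells, so its groups were in the order 10 h, pre-S, imminent division without overlap. Klra2, which lies apart from the other Klra genes at the distal end, held 376 and 362 at 10 h, 423 and 415 at pre-S and 604 and 568 at imminent division.

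In the block of CD94 and the NKG2 genes all 4 bins, with 8 genes, rose in both comparisons with 10 h. The bin of Klre1 and Klrd1 held 1139 and 1302 normalized counts at 3 h, 1189 and 1156 at 10 h, 1686 and 1653 for imminent division, and 1486 and 1609 in pre-S cells. All 4 libraries at 33 h were above the earlier 4, with log2 changes of 0.51 (FDR 1.42e-11) and 0.40 (FDR 3.26e-07). The bin of Klrk1, the NKG2D gene, and Klrc3 went from 561 and 595 to 875 and 869 for imminent division (0.59, FDR 7.67e-11) and 855 and 777 in pre-S cells (0.50, FDR 2.99e-07). The bin of Klrc1 and Klrc2, which encode an inhibitory and an activating partner of CD94, went from 426 and 435 to 705 and 713 (0.72, FDR 3.49e-12) and to 611 and 593 in pre-S cells (0.48, FDR 3.17e-06). That of Klri1 and Klri2 went from 705 and 684 to 1086 and 1083 (0.65, FDR 4.05e-13) and to 974 and 902 (0.44, FDR 6.64e-07).

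The myeloid Clec and Klrb1 to Clec2 promoters changed less. Of the 4 myeloid Clec bins 3 rose at imminent division, those of Clec1a (0.34), Clec9a (0.28), and Clec12b with Clec1b (0.23), and the same 3 rose at pre-S, by 0.18, 0.15 and 0.16. Clec12a, an inhibitory receptor gene of myeloid cells, had a change of 0.04 that missed the threshold in both. Among the 10 Klrb1 to Clec2 bins, Clec2e (0.14, FDR 0.00443) and Klrb1f (0.13, FDR 0.00387) rose at imminent division, and Klrb1a (-0.13, FDR 0.0108) and Clec2h (-0.20, FDR 0.0364) fell. Neither fall held when contacts were summed without the curve, where Klrb1a was at 0.05 (FDR 0.147) and Clec2h at 0.09 (FDR 0.0385). Klrb1a held 1598 and 1577 normalized counts at 10 h, 1434 and 1463 for imminent division, and 1454 and 1379 in pre-S cells, so both groups at 33 h lay below the earlier ones (1623 and 1595 at 3 h). Klrb1a (-0.16) and Clec2h (-0.33) were also the 2 bins that fell at pre-S, and without the curve neither was called there (Klrb1a 0.02, FDR 0.603; Clec2h -0.06, FDR 0.163). Klrb1, Klrb1b, Klrb1c, which encodes NK1.1, Clec2d, Clec2g and Clec2i had changes of -0.09 to 0.10 in both and missed the threshold. Clec2i and Clec2g were higher at imminent division than at pre-S, by 0.16 each.

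The size of these changes depended on the curve. When all contacts of a promoter bin within the chromosome were summed instead, 28 of the 29 bins rose at imminent division and 0 fell, but the Klra changes were 0.11 to 0.24 and those of the Klrd1 to Klrc block 0.13 to 0.22. The Klra bins then no longer stood out from the Klrb1 to Clec2 bins, which had changes of 0.05 to 0.27. The median change without the curve was 0.185 over the 29 bins and 0.00124 over all promoter bins. The same medians were 0.0917 and -0.000747 at pre-S, and 0.0947 and 0.00572 for imminent division against pre-S. No share of calls without the curve over all promoter bins is given here, so these counts lack that reference. At pre-S 16 of 29 rose without the curve, with 7 of the 11 Klra bins but 2 of the 4 bins of the Klrd1 to Klrc block, in which Klrk1 and Klrc3 had a change of 0.07 (FDR 0.128) and Klrc1 and Klrc2 one of 0.02 (FDR 0.578). Between imminent division and pre-S, 12 of 29 bins were called without the curve, and of the 11 Klra bins 2 were, with changes of -0.01 to 0.12.

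**Figure D2:**
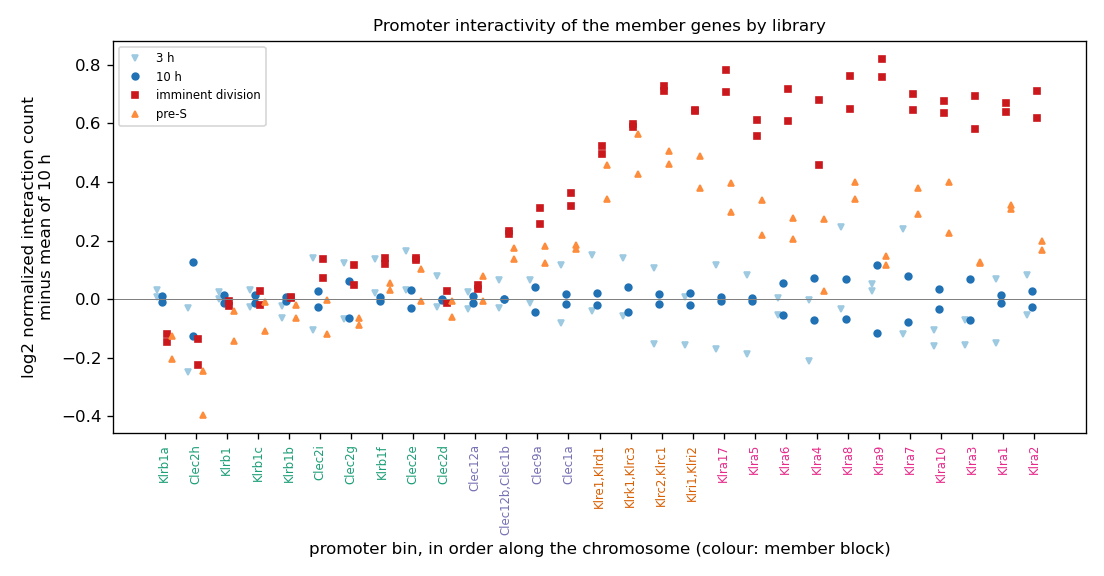
Promoter interactivity of the member promoter bins in each of the 8 libraries, as log2 normalized interaction count minus the mean of the 10 h libraries, with the bins in chromosome order and their names coloured by block. At imminent division the Klra bins have fitted changes of 0.59 to 0.80 and the Klrd1 to Klrc bins 0.51 to 0.72, the Klra pre-S means lie between imminent division and 10 h, and the Klrb1 to Clec2 bins have changes of -0.20 to 0.14.

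Genes of the same pathway elsewhere in the genome moved in both directions. Of 13 adaptor and signalling genes in 12 bins, 2 bins rose and 5 fell from 10 h to imminent division, beside 24.7% and 24.2% of all promoter bins, with a median log2 change of -0.07 against -0.002 over all promoter bins. Cd247, the zeta chain of receptor complexes, had a change of 0.29 and Pik3r1, a phosphoinositide kinase subunit, one of 0.28. The 5 that fell were the bin of Tyrobp and Hcst, whose products DAP12 and DAP10 carry the signal of Ly49 and NKG2D receptors (-0.17), and those of Ptpn6 (-0.17), Ptpn11 (-0.18), Inpp5d (-0.21) and Syk (-0.16). Without the curve Ptpn6 (-0.09, FDR 0.105), Inpp5d (-0.03, FDR 0.537) and Syk (-0.07, FDR 0.133) were not called. Of the ligand genes 9 of 12 could be placed, in 8 bins, of which 2 rose and 3 fell, which is near the share over all promoter bins. H60c (-0.45) and Raet1d (0.35), both NKG2D ligand genes, moved in opposite directions (Raet1d was at -0.09 without the curve), and H2-D1 (-0.29) and H2-K1 (-0.13), MHC class I genes, fell. At pre-S, against 10 h, 2 adaptor bins rose and 5 fell, while 0 ligand bins rose and 3 fell. Over all promoter bins 16.4% rose and 15.3% fell. The ligand gene H2-T23 was among those that fell (-0.44, FDR 0.000153, and -0.35 with FDR 0.00143 without the curve). Imminent division was above pre-S in 4 ligand bins and below it in 1, and in 0 adaptor bins either way, beside 10.3% and 11.3%. These lists were chosen with earlier results of these data known. Of 6 bins with genes in or near the complex that are no members, 4 rose and 1 fell, among them Cd69 (0.15, FDR 0.000667), with 2842 and 2770 normalized counts at 10 h and 3148 and 3090 for imminent division, Magohb (0.45), and Foxm1 (-0.18, and -0.04 with FDR 0.271 without the curve). Over the 26 bins of these lists, 7 lost their call without the curve.

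The compartment of each 100 kb region was read from the first principal component of the contact pattern of its chromosome, where A (open, gene-rich) lies above 0. The complex ran from A on its Klrb1 to Clec1a side to regions above and below 0 on its Klrd1 to Klra2 side. The Klrb1 to Clec1a side had a mean component of 1.17 and 1.15 at 3 h, 1.17 and 1.17 at 10 h, 1.22 and 1.22 for imminent division, and 1.23 and 1.21 in pre-S cells, so it was in A throughout. The Klrd1 to Klra2 side had means of -0.08 and -0.0009 at 3 h, -0.08 and -0.08 at 10 h, -0.08 and -0.07 for imminent division, and -0.23 and -0.24 in pre-S cells, so the pre-S libraries lay below all others. These means cover regions on both sides of 0. At 10 h the lowest, in the gene-poor stretch between Klra1 and Klra2, was in B at -0.67 and -0.73, and that of Klra2 and Magohb was in A at 0.33 and 0.37.

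From 10 h to pre-S, 5 of the 27 regions of the complex moved toward A (18.5%) and 14 toward B (51.9%), against 10.9% and 13.2% over 23558 regions by limma at FDR 5%. On the Klrd1 to Klra2 side 12 of 17 moved toward B and 0 toward A. The largest shift was that of Klrk1 and Klrc1 to Klrc3, whose component was 0.53 and 0.55 at 10 h, 0.28 and 0.35 for imminent division, and 0.24 and 0.21 in pre-S cells, with 0.49 and 0.59 at 3 h. It moved down by 0.32 in pre-S cells (FDR 0.000246) and by 0.23 for imminent division (FDR 0.000754), and remained in A. The region of Klra5, an Ly49 gene, was at -0.004 and -0.12 at 10 h, 0.02 and -0.02 for imminent division, and -0.26 and -0.25 in pre-S cells, so only pre-S lay apart (-0.20, FDR 0.00734). On the other side 5 regions, from Klrb1b to Cd69, moved toward A by 0.14 to 0.15, and 2 moved toward B, those of Clec9a and Clec1a (-0.09, FDR 0.0476) and of Olr1 to Klrd1 (-0.14, FDR 0.00342).

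From 10 h to imminent division 11 of 27 regions moved toward A (40.7%) and 3 toward B (11.1%), against 13.7% and 15.8%. Of those toward A, 6 were on the Klrb1 to Clec1a side, which was already in A. The other 5 lay in the gene-poor stretch between Klra1 and Klra2, so no region with a Klrd1, Klrk1, Klrc or Klra gene start was called toward A. The count of 14 was 6 without 10 h replicate 2, 9 without imminent division replicate 1 and 8 without imminent division replicate 2. Imminent division was closer to A than pre-S in 10 regions (37%) and closer to B in 0, against 9.22% and 8.61%, in 8 without imminent division replicate 2 and in 5 without pre-S replicate 2. All 10 were on the Klrd1 to Klra2 side, and 5 of them lay in the gene-poor stretch between Klra1 and Klra2. From 3 h to 10 h limma called 0 of 27 (6 with an unadjusted p under 0.05), against 2.87% and 2.61%.

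**Figure D3:**
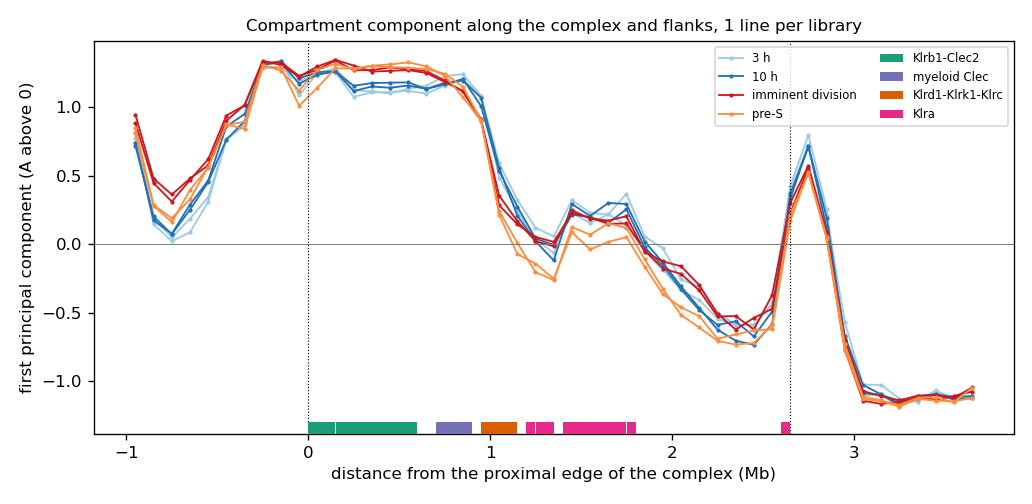
First principal component of each 100 kb region, with A above 0, against the distance from the proximal edge of the complex in Mb, 1 line per library coloured by group, with the member blocks as bars. The Klrb1 to Clec1a side lies near 1.2 in every library, and the pre-S lines run lowest over the Klra genes except at the region of Klra7 and Klra10, where they overlap the others.

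The insulation score of a bin is the log2 contact across it within 10 bins on each side, relative to the chromosome, so a low score marks a border. The deepest minimum of the complex lay at the Klre1 and Klrd1 bin, between the sides. Its score was -1.03 and -1.03 at 3 h, -1.17 and -1.19 at 10 h, -0.57 and -0.59 for imminent division, and -1.01 and -1.08 in pre-S cells. The imminent division libraries stood above the other 6, by 0.60 over 10 h (FDR 0.000131) and 0.46 over pre-S (FDR 0.00180), so the border was shallower there. At pre-S the score was 0.13 above 10 h (FDR 0.05, just under the threshold). A shallower minimum between Klra1 and Klra2, in a bin with no member, had scores of -0.36 and -0.31 at 10 h, 0.05 and 0.04 for imminent division, and -0.02 and 0.01 in pre-S cells. The deepest minimum of the whole window was in the distal flank, with no member near it, at -1.68 to -1.35 in the 8 libraries.

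Over the complex 38 of 53 bins had a higher score at imminent division than at 10 h (71.7%) and 10 a lower one (18.9%), against 44.1% and 20.8% over 46758 bins, with a median change of 0.12 over all of them. The total of 48 was 45 without imminent division replicate 2. At pre-S 32 were higher (60.4%) and 14 lower (26.4%), against 37.5% and 20.6%, and the total of 46 was 26 without 10 h replicate 2 and 27 without pre-S replicate 1. The sides differed in direction, though the share of lower bins over the complex at imminent division was near that over all bins. Neighbouring bins share most of the contacts in their scores, so they are not separate observations. On the Klrd1 to Klra2 side 34 of 34 bins were higher at imminent division and 32 of 34 in pre-S cells. On the Klrb1 to Clec1a side 10 of 19 were lower and 4 higher at imminent division, and 14 were lower and 0 higher at pre-S. When counts were divided by bin coverage, 29 bins of the complex were higher at pre-S than at 10 h and 0 lower.

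Clec2g, a gene of a lectin like the NKR-P1 ligands, had the largest loss of contact across its bin at imminent division. The score of the Clec2g bin was 1.75 and 1.79 at 10 h, 1.23 and 1.29 for imminent division, and 1.41 and 1.37 in pre-S cells, with 1.78 and 1.72 at 3 h. Both groups at 33 h lay below both earlier ones, by 0.51 (FDR 0.000191) and 0.38 (FDR 0.00180). The Clec2d bin moved down by 0.32 and 0.34. The Cd69 bin was lower by 0.28 in pre-S cells (FDR 0.00301), whereas its change of -0.06 for imminent division missed the threshold. None of these falls at pre-S was called when counts were divided by bin coverage, where 0 bins of the complex were lower. Between imminent division and pre-S 10 bins were higher at imminent division (18.9%) and 0 lower, against 8.29% and 1.92%. That count was 6 without either 10 h library or imminent division replicate 1, 5 without imminent division replicate 2, 1 without pre-S replicate 1 and 3 without pre-S replicate 2, and bin coverage made it 33 higher and 13 lower. From 3 h to 10 h 0 bins were called by limma, in the complex (12 with an unadjusted p under 0.05) or over all bins (0% and 0%), though 9 were in the complex without 3 h replicate 1 and 26 when counts were divided by bin coverage.

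**Figure D4:**
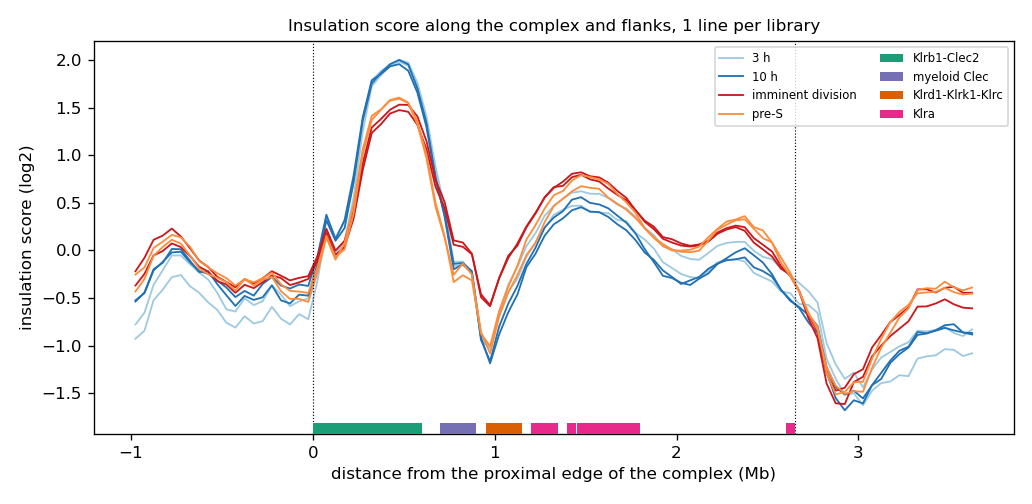
Insulation score in log2 units of each 50 kb bin against the distance from the proximal edge of the complex in Mb, 1 line per library coloured by group, with the member blocks as bars. Lines at 33 h run below the earlier ones over the Klrb1 to Clec2 genes and imminent division runs above the earlier lines at the Klrd1 minimum, at -0.57 and -0.59, where pre-S (-1.01 and -1.08) overlaps 3 h.

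Borders were also tested as the ratio of upstream to downstream contact over 1 Mb in each 100 kb region. At imminent division the ratio had grown in size since 10 h in 2 of 27 regions of the complex (7.41%) and shrunk in 8 (29.6%), against 4.44% and 13.6% over 23198 regions. All 8 that shrank were on the Klrb1 to Clec1a side, with which the 100 kb region of Olr1 to Klrd1, which spans both sides, is counted for the ratio and the component. The region of Klrb1a and Clec2h had log2 ratios of -1.40 and -1.29 at 10 h and -0.75 and -0.72 for imminent division, an excess of downstream contact that shrank by 0.60 (FDR 3.19e-12), with -1.51 and -1.49 at 3 h and -1.11 and -1.06 in pre-S cells. At the other end of that side, the region of Olr1 to Klrd1 had 0.89 and 1.05 at 10 h and 0.41 and 0.46 for imminent division, an excess of upstream contact that shrank by 0.54 (FDR 4.97e-11), with 0.76 and 0.80 at 3 h and 0.70 and 0.73 in pre-S cells. The region of Clec12a to Clec1b shrank by 0.48 (FDR 1.81e-10), from 1.25 and 1.31 to 0.79 and 0.81, and that of Cd69 by 0.39 (FDR 6.24e-07).

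The region of Klra2 and Magohb went the other way. Its ratio was 0.28 and 0.49 at 3 h, 0.52 and 0.49 at 10 h, 0.88 and 0.85 for imminent division, and 1.00 and 1.03 in pre-S cells, so all libraries at 33 h were above all earlier ones, by 0.36 (FDR 0.000970) and 0.51 (FDR 4.47e-05). At pre-S this was the region that grew (3.7%), and 2 shrank (7.41%), those of Clec12a to Clec1b (-0.33) and of Clec9a and Clec1a (-0.32), against 1.91% and 2.89%. Between imminent division and pre-S 0 were larger at imminent division and 3 smaller (11.1%), against 0.604% and 4.92%, namely the regions of Klrb1a and Clec2h, Clec2e and Clec2d, and Olr1 to Klrd1. From 3 h to 10 h edgeR called 0 of the 47 regions of the complex and flanks, and 2 with no fold threshold, against 0.194% and 0.185%. With the flanks, 15 regions were called at imminent division (14 without its replicate 2), 5 in pre-S cells and 3 between them. The 5 in pre-S cells were 2 without 10 h replicate 2 or without pre-S replicate 2 and 3 without pre-S replicate 1, and the 3 between the groups at 33 h were 1 without pre-S replicate 1.

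Contact inside and between the 4 blocks of members was summed and set against the contact expected at the same distances on all autosomes. With 4 groups of 2 libraries an exact permutation test over libraries cannot give a p under 0.00952, and 8 of the 10 block pairs passed 5% after Benjamini-Hochberg adjustment over the 10. That count was 0 without 3 h replicate 1, 3 h replicate 2, 10 h replicate 1, 10 h replicate 2, imminent division replicate 1 or pre-S replicate 1, was 4 without imminent division replicate 2 and 5 without pre-S replicate 2. When bins with under 80% of 31-mers found once were left out, no bin of the Klra block remained, so its 4 block pairs had no value, and 0 of the others passed.

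The Klrb1 to Clec2 block had the most contact with the myeloid Clec block, above the expected level by a log2 of 1.57 and 1.61 at 3 h, 1.53 and 1.49 at 10 h, 1.25 and 1.30 for imminent division, and 1.23 and 1.17 in pre-S cells. The groups at 33 h lay below the earlier ones without overlap (exact permutation p 0.00952 over the 4 groups, adjusted 0.0381). Contact inside the Klrb1 to Clec2 block was 1.03 ± 0.02 (SD, n = 2) at 10 h, 0.80 ± 0.02 for imminent division and 0.81 ± 0.02 in pre-S cells.

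Several pairs of blocks that lie apart had more contact at 33 h. The Klrb1 to Clec2 block had less contact than expected with the Klra block, at -0.99 and -1.06 at 10 h, -0.39 and -0.33 for imminent division, and -0.64 and -0.86 in pre-S cells, with -1.01 and -0.95 at 3 h (adjusted p 0.0381 by the exact permutation test). Imminent division was highest, and pre-S lay between it and the earlier groups. The Klrd1 to Klrc block with the Klra block went from 0.21 ± 0.05 (SD, n = 2) at 10 h to 0.54 ± 0.04 for imminent division and 0.43 ± 0.10 in pre-S cells. Contact among the Klra genes themselves went from -0.15 ± 0.03 to 0.10 ± 0.04 and 0.11 ± 0.01. The remaining pairs past the threshold were the Klrd1 to Klrc block with itself, the myeloid Clec block with the Klrd1 to Klrc block and the myeloid Clec block with the Klra block, which were all highest at imminent division. The myeloid Clec block with itself (adjusted p 0.138) and the Klrb1 to Clec2 block with the Klrd1 to Klrc block (adjusted p 0.333) missed it by the exact permutation test.

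**Figure D5:**
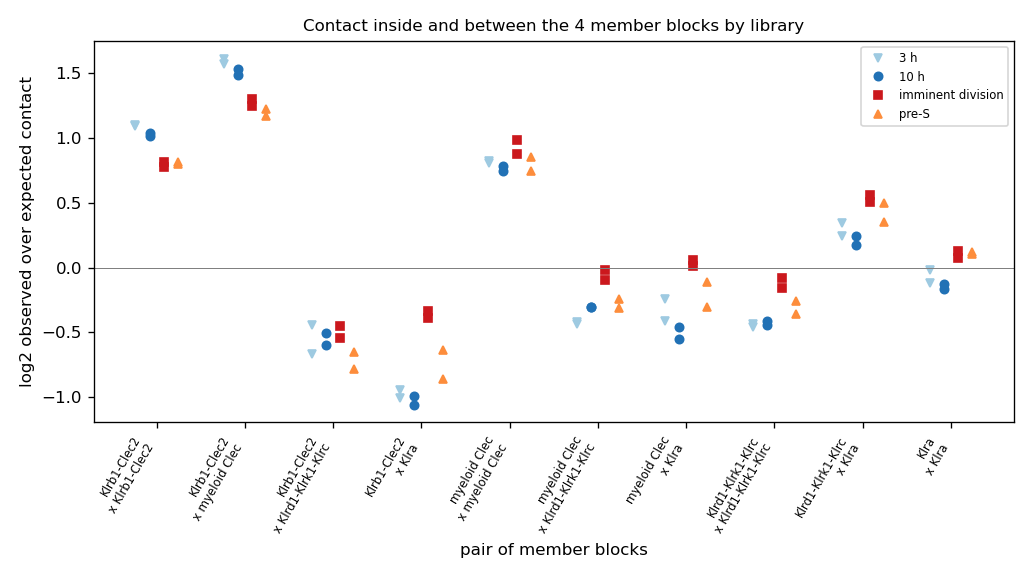
Log2 of observed over expected contact inside and between the 4 member blocks in each of the 8 libraries, with pairs of blocks along the x axis and groups by colour and marker. The Klrb1 to Clec2 block with the myeloid Clec block falls from 1.49 to 1.61 before 33 h to 1.17 to 1.30 at 33 h, and the Klrb1 to Clec2 block with the Klra block rises to -0.39 and -0.33 for imminent division.

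Contact was also measured over the whole complex. Of 9 measures over all 53 bins, 0 passed 5% after adjustment (6 did without 3 h replicate 1), while 2 had an unadjusted exact permutation p under 0.05. Contact inside the complex fell less steeply with distance at 33 h, with slopes of -1.37 and -1.36 at 10 h, -1.2 and -1.19 for imminent division, and -1.26 and -1.23 in pre-S cells, after -1.34 and -1.33 at 3 h (exact permutation p 0.00952, the smallest possible, adjusted 0.0857). These slopes are of counts not divided by the expected decay, and no slope of the flanks or autosomes is given. Whether the change was particular to the complex was not tested. Contact with the proximal flank was -0.20 and -0.17 at 10 h, -0.39 and -0.36 for imminent division, and -0.38 and -0.38 in pre-S cells (adjusted p 0.0857). The difference of -0.19 between imminent division and 10 h turned to 0.0543 when counts were scaled to the cis read pairs of each library. Contact inside the complex was 0.25 and 0.24 at 10 h, 0.35 and 0.36 for imminent division, and 0.31 and 0.28 in pre-S cells (exact permutation p 0.114, adjusted 0.129), and the 3 h libraries, at 0.26 and 0.35, covered most of that range. The difference of 0.11 between imminent division and 10 h turned to -0.0514 when bins with under 80% of 31-mers found once were left out.

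The complex was set against its flanks and against other clustered receptor genes, the olfactory (Olfr) and vomeronasal (Vmn) receptors, in 12 differences, of which 8 passed 5% after adjustment over the 12 by exact permutation. That count was 0 without 10 h replicate 1, 10 h replicate 2, pre-S replicate 1 or pre-S replicate 2 and 3 without imminent division replicate 2. The share of read pairs that leave the chromosome rose less from 10 h to imminent division in the complex than in the others. It was 26.6% and 27.4% in the complex at 10 h and 27.9% and 28.3% at imminent division, while in the proximal flank it was 19.5% ± 0.32 (SD, n = 2) and then 24.5% ± 0.26, and over all autosomal bins 25.7% ± 0.36 and then 29.5% ± 0.35.

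The complex exceeded its proximal flank in this share by 7.26 and 7.6 percentage points at 10 h, 3.59 and 3.61 for imminent division, and 6.63 and 6.6 in pre-S cells, with 8.93 and 7.81 at 3 h (adjusted p 0.0381 by the exact permutation test). It exceeded Olfr bins by 1.53 and 1.95 points at 10 h and was below them by 1.39 and 1.43 for imminent division, and pre-S lay between, at 0.19 and 0.24. The differences in local contact from the distal flank, Olfr bins and Vmn bins, which were smaller at 33 h, changed direction when counts were divided by bin coverage.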

How the data were processed

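Hi-C contacts were measured in 8 libraries of activated mouse B cells, 2 in each of 4 groups. The authors processed reads with diffHic (cutadapt, bowtie2), marked duplicates, removed dangling ends and other artefacts, and deposited the raw number of read pairs (counts) for every 2 bins of 50 kb, with no balancing and no coordinates. The submitters' processing notes name the build mm10. The bins were rebuilt by placing the MboI fragments of GRCm38 by their midpoints, which gave the 53357 bins of the matrices. Autosomal bins of extreme coverage or with more than a share of 0.1 of N were left out (749), and 47339 were kept.

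Bin pairs with a summed count of at least 10 and 4-fold the interchromosomal background were tested with edgeR 4.0.16 (quasi-likelihood, loess offsets, pairs under 1.5 Mb fitted apart, R 4.3.3). Promoter bins were summed over pairs above a distance curve plus 2 mean absolute residuals and needed a sum of 200. Boundary ratios were tested with glmTreat (fold 1.1), and the component and the insulation score with limma 3.58.1. FDR was adjusted over all autosomal features. Promoter windows of the study were 10 kb and bins of 50 kb were used here. Single values were tested by exact permutation over libraries. Alternatives were DESeq2 1.42.0, TMM, bin coverage, other filters, windows and bin sizes, thinned libraries, a replicate block, bins with 80% unique 31-mers, and leaving out each library. No molecular identifiers were used, so read pairs may not all be separate molecules.

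On simulated counts for imminent division against 10 h, the test recovered 29%, 47.6% and 79.4% of chromosome 6 bin pairs changed 1.5-, 2- and 3-fold (41609 pairs), and 97.4%, 96.8% and 100% of promoter bins (13062 bins). The simulated bin pairs were under 1.5 Mb and had a higher floor of summed count than the tested pairs. Their FDR was adjusted among themselves alone, and counts were drawn with a common spread between libraries. The recovery of the reported pairs may thus be lower.

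The members and lists were chosen with earlier results of these data known. Values were given for the 3 bin pairs with the smallest p per direction and contrast, for up to 5 changed member promoter bins and 3 boundary regions per direction and contrast, for the genes at the 3 deepest insulation minima, and always for Cd69, Clec2d, Klrk1, Klrd1 and the Klra genes. The other genes named were chosen after their values were seen.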

Additional observations from a re-analysis of the deposited data

How the results depend on the processing

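Counts of changed bin pairs in the complex (39 at imminent division and 9 at pre-S against 10 h, and 4 between them) depended on the processing. They were 81, 12 and 5 with TMM factors, 90, 0 and 25 when the offsets took in bin coverage, 37, 5 and 1 with offsets per distance class, 9, 4 and 0 in libraries thinned to the shallowest, 50, 13 and 8 with an 8-fold filter, 16, 2 and 1 with a 2-fold filter, 82, 10 and 5 with 100 kb bins, and 0, 0 and 0 by DESeq2, and the count from 3 h to 10 h was 2 with bin coverage. Leaving out 1 library gave 3 to 43 at imminent division, 0 to 10 at pre-S and 0 to 5 between them. Same-numbered samples did not regularly deviate in the same direction. Correlations were -0.18 to 0.05 over promoter bins, -0.20 to 0.20 over the component and -0.75 to 0.25 over the insulation score. In the same order, 0, 1 and 1 of 6 pairs of groups were over 0.1. The value of -0.75 is a strong deviation in opposite directions, and a shared batch under another numbering was not tested. With the replicate number as a block the bin pair counts were 34, 5 and 1, the insulation counts 46, 42 and 7, and 1 component region was called from 3 h to 10 h. Promoter counts from 3 h to 10 h and then in the same order were 0 to 1, 19 to 23, 8 to 17 and 10 to 17 without 1 library, and DESeq2 called 9 at pre-S and 9 between the groups at 33 h. Component counts were 2, 5, 8 and 7 with 250 kb bins, which are fewer regions, and 0 to 0, 6 to 15, 13 to 21 and 5 to 12 without 1 library. Insulation counts were 26, 49, 29 and 46 after division by bin coverage, and 0 to 9, 36 to 50, 26 to 48 and 1 to 14 without 1 library. Boundary counts were 2, 20, 12 and 12 with no fold threshold, 0, 10, 1 and 2 with 500 kb windows, and 0 to 0, 13 to 15, 2 to 5 and 1 to 3 without 1 library. Of the whole-complex measures 4 passed after division by bin coverage, 2 when scaled to the cis read pairs of each library, and 0 to 6 without 1 library. Of the block pairs 0 passed without the bins of repeated sequence, which left none of the Klra block, and 0 to 5 without 1 library, and of the differences from flanks and other families 0 to 7. Single values that changed sign, as imminent division minus 10 h, were contact inside the complex (0.11, and -0.0514 without bins of repeated sequence), contact with the proximal flank (-0.19, and 0.0543 when scaled to cis read pairs), distant B minus A contact (-0.05, and 0.35 without bins of repeated sequence or 0.0185 without imminent division replicate 2, with -0.111 to 0.0185 without 1 library), the Klrb1 to Clec2 block with the Klrd1 to Klrc block (0.06, and -0.21 without bins of repeated sequence), and local contact against the distal flank, Olfr and Vmn bins (-0.18, -0.12 and -0.15, and 0.10, 0.25 and 0.14 with bin coverage). Among the genes always named, promoter values that changed sign were Clec2d at imminent division (0.005, and -0.0366 with bin coverage or -0.0102 without imminent division replicate 1, with -0.0102 to 0.031 without 1 library), Clec2d at pre-S (-0.03, and 0.0554 with no distance curve) and Klra2 at pre-S (0.19, and -0.068 with bin coverage), and the Prb1 pair turned from 0.74 to -0.54 with bin coverage. Over all 29 member promoter bins, leaving out the distance curve turned the sign of 3 at imminent division (Klrb1a, Clec2h and Klrb1), 7 at pre-S (Klrb1a, Klrb1, Klrb1c, Klrb1b, Clec2i, Clec2g and Clec2d) and 2 between them (Klra4 and Klra8), of which 2, 1 and 2 had been called, and it ended 1, 6 and 12 calls. The causes were not tested. Of the other comparisons of single values with an alternative, 717 kept their direction and side of the threshold, 215 lost the call and 27 gained one.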
